A study of Sus scrofa with 23 samples.

Results

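ACYP2, CCSER1, PCBD1, HLTF and ZHX1 are 5 porcine genes whose transcripts stood higher in cloned 8-cell embryos than in 8-cell embryos fertilized in vivo. They are 5 of the 8603 genes in the deposited expression table, and they were chosen by their FPKM values in that 8-cell contrast, so their 8-cell differences are given as a description and carry no test. RNA sequencing had measured 23 libraries of pig oocytes and pre-implantation embryos, 1 library per condition, each made from a pool. The IV-D group held MII oocytes of Duroc sows and the embryos of Duroc sows inseminated with semen of a single Duroc boar, flushed at the stages from 1 cell to the blastocyst. The NT-D group held clones whose nuclei came from ear fibroblasts of that same boar, and the NT-LW group clones of ear fibroblasts from a boar of the Chinese Laiwu breed, both boars being 1 year old. Each cloned group therefore stands for 1 donor animal and all its embryos were male, while the IV-D pools mixed both sexes. Recipient oocytes of both cloned groups came from slaughterhouse ovaries of hybrid sows and were matured in vitro, and the cloned embryos were cultured in PZM3 medium. The library labelled NT-D oocyte holds such in vitro matured oocytes. It precedes both cloned groups here, and NT-LW has no oocyte library of its own. Blastocysts were cut by hand into a piece with trophectoderm alone (TE) and a piece with inner cell mass and trophectoderm together (IT).

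At the start of development an embryo lives on RNA that the oocyte stored, and these maternal transcripts are shortened at their poly(A) tails and degraded while the embryo's own genome is switched on. In pigs this exchange takes place during the cleavage stages. In nuclear transfer the oocyte's stored RNA is the same kind of starting point, but the genome that has to be switched on comes from a differentiated cell.

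The 5 genes have unrelated roles. ACYP2 encodes an acylphosphatase, a small enzyme that splits the carboxyl phosphate bond of acylphosphates. PCBD1 encodes pterin carbinolamine dehydratase, which recycles the cofactor tetrahydrobiopterin and also acts in the nucleus as a dimerization cofactor. HLTF encodes a helicase-like ATPase of the SWI/SNF family that also carries a ubiquitin ligase domain and acts in the bypass of DNA damage during replication. ZHX1 encodes a nuclear protein with zinc fingers and homeodomains that represses transcription. CCSER1 encodes a coiled-coil, serine-rich protein about which little is known.

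In the files the genes are ACYP2 (ENSSSCG00000025224), CCSER1 (ENSSSCG00000022986), PCBD1 (ENSSSCG00000010275), HLTF (ENSSSCG00000025293) and ZHX1 (ENSSSCG00000005984). In Sscrofa11.1, ACYP2 spans 86945635 to 87231376 of chromosome 3 on the minus strand, and overlaps a coding gene known only by its number on the other strand, LOC106508926, a pseudogene and a long non-coding RNA. CCSER1 spans 1224168 bases, from 127729166 to 128953333 of chromosome 8, minus strand, and overlaps a long non-coding RNA on the plus strand. PCBD1 lies at 73769339 to 73807278 of chromosome 14, minus strand, and overlaps SGPL1 on the plus strand. HLTF lies at 89261199 to 89333020 of chromosome 13, minus strand, and ZHX1 at 16100773 to 16134222 of chromosome 4, plus strand, and neither overlaps another annotated gene. The library kit does not mark strand, so reads of ACYP2, CCSER1 and PCBD1 cannot be told apart from reads of partners on the other strand where exons overlap.

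The fate of a stored transcript is read partly from its 3′ end. Cytoplasmic polyadenylation factors bind the letters TTTTAT (as U for T in RNA), and these letters were searched on the transcript strand after the stop codon of the RefSeq transcript with the longest coding part. They were present in 4 of the 4 genes whose region could be read and in 63.3% of 6505 transcripts of the table. CCSER1's transcript ends too soon after its stop codon and was not described. Windows of 30 bases around the last match are shown because they are the element of this kind nearest to each transcript's end, with TTTTAT in capitals, at chr3:86945635-86945664 (ACYP2), chr14:73800778-73800807 (PCBD1), chr13:89261761-89261790 (HLTF) and chr4:16126581-16126610 (ZHX1).
ACYP2: taataaagttaatcacttaacaatTTTTAT
PCBD1: aaacacatgtgcTTTTATgccgcaaataaa
HLTF: ttctgcttacctTTTTATgtgtatataagt
ZHX1: gcttttaaatatTTTTATttgacagagcaa

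ACYP2 and PCBD1 held 1 match each, HLTF held 4 and ZHX1 held 7, against a median of 1 per transcript, and the longer regions of HLTF and ZHX1 (2174 and 1893 bases after the stop codon, against 362 and 472) offer more places for a match. The Pumilio letters TGTANATA were found in HLTF and ZHX1 and in 30.4% of transcripts. These are matches of letters and were not tested against stability. The last TTTTAT match lay 0 bases from the transcript's end in ACYP2, 29 in PCBD1, 574 in HLTF and 76 in ZHX1.

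Promoters were read as 250 bases before to 50 bases after the RefSeq start, and those of 4 of the genes are described, that of CCSER1 being left out. The promoter of ACYP2 is printed because this gene had the largest 8-cell difference of the 5. That of HLTF is printed because its course was least like those of the others. CG pairs are in capitals, on the minus strand, at chr3:87231327-87231626 (ACYP2) and chr13:89332971-89333270 (HLTF).
ACYP2: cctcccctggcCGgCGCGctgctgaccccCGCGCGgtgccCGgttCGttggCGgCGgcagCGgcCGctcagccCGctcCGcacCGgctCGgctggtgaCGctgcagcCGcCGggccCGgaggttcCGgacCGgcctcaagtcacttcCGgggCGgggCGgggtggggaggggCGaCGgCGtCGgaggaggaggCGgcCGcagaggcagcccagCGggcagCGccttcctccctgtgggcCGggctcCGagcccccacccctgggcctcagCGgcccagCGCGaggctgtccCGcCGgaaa
HLTF: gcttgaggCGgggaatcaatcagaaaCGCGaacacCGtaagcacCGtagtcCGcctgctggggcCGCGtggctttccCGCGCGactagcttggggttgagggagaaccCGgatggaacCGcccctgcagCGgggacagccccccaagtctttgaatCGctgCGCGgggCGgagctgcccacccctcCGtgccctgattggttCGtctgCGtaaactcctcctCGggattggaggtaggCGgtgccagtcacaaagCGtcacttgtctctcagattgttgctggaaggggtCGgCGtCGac

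The ACYP2 window held 40 CG pairs, more than 89.6% of the 6823 promoters that were read for the table, where the median was 21. HLTF held 27, PCBD1 24 and ZHX1 20. On either strand GGGCGG was present in the 4 windows and in 63.1% of all promoters, and CCAAT in HLTF alone of the 4 (37.7% of all). No window was tested against the levels that follow.

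Levels are given as FPKM, fragments per 1000 bases of gene and 1000000 fragments of the library. The library depth was 14952784 to 22991067 fragments, and whole fragment numbers could be recovered for every gene, so each level has an exact 95% Poisson interval and each ratio of 2 libraries an exact binomial interval. Both cover counting error alone and say nothing about differences between embryos, since no condition had a second library here. FPKM is a share of the RNA of a library, so a transcript that stays while others vanish gains in FPKM. In pools of embryos, fewer cells holding a transcript and less of it per cell cannot be told apart.

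A pair of libraries stood apart. The NT-D morula library carried a summed level of 15 oocyte transcripts (GDF9, BMP15, ZP2, ZP4, BTG4 and others) of 645 FPKM, against 103 in NT-LW and 24.0 in IV-D morulae, so NT-D and NT-LW morulae are given separately throughout. In the NT-LW 2-cell library 34.7% of genes were higher than in IV-D, with a median difference over all genes of 0.66 on the log2 scale. At the 8-cell stage, equal sums changed the scaling factor of clones against IV-D by -0.26 (NT-D) and -0.27 (NT-LW) on the log2 scale, and median ratios by 0.20 and 0.09. The reported differences moved by less, since 1 is added to FPKM, as for ACYP2 in NT-D from 5.06 to 4.96 and 5.16.

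ACYP2 was abundant in both oocyte libraries and at the 1-cell stage of all 3 groups, and had all but left the IV-D embryo by the 8-cell stage. In IV-D it stood at 1443 FPKM in oocytes, 1929 at the 1-cell, 2361 at the 2-cell, 350.1 at the 4-cell and 3.49 at the 8-cell stage, 4.14 in morulae, 4.49 in IT and 15.6 in TE. In NT-D it stood at 1362 FPKM in oocytes, 1123 at the 1-cell, 1619 at the 2-cell, 590.1 at the 4-cell and 149 at the 8-cell stage, 17.9 in morulae, 9.58 in IT and 10.8 in TE. In NT-LW it stood at 889 FPKM at the 1-cell, 1082 at the 2-cell, 375 at the 4-cell and 76.8 at the 8-cell stage, 13.4 in morulae, 9.50 in IT and 5.38 in TE. The IV-D 8-cell library was the lowest of all 23, and its interval overlapped those of IV-D morulae and IT in the order of levels. Both cloned 8-cell libraries lay above every later library of any group.

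The 8-cell level of ACYP2 was 42.5 times the IV-D level in NT-D (interval 33.3 to 55.3) and 22.0 times in NT-LW (17.1 to 28.7). It rested on 65 fragments in IV-D, 2596 in NT-D and 1138 in NT-LW. The log2 difference of 5.06 in NT-D ranked 2 of the 7441 genes compared, and that of 4.11 in NT-LW ranked 13 of 7618.

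CCSER1 followed the same course at a similar level. In IV-D it stood at 543 FPKM in oocytes, 777 at the 1-cell, 1573 at the 2-cell, 259 at the 4-cell and 7.82 at the 8-cell stage, 1.12 in morulae, 2.24 in IT and 5.13 in TE. In NT-D it stood at 669.6 FPKM in oocytes, 524 at the 1-cell, 1461 at the 2-cell, 812 at the 4-cell and 196 at the 8-cell stage, 34.8 in morulae, 3.86 in IT and 2.28 in TE. In NT-LW it stood at 586 FPKM at the 1-cell, 845 at the 2-cell, 510.3 at the 4-cell and 105 at the 8-cell stage, 6.56 in morulae, 1.94 in IT and 1.32 in TE. The 3 groups shared a peak at the 2-cell stage, and the IV-D morula library was the lowest of all. At the 8-cell stage NT-D stood at 25.1 times IV-D (22.8 to 27.5) and NT-LW at 13.4 times (12.2 to 14.8).

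PCBD1 was already higher in the in vitro matured oocyte, before any nucleus had been transferred. In IV-D it stood at 290.2 FPKM in oocytes, 344 at the 1-cell, 179.8 at the 2-cell, 102 at the 4-cell and 11.0 at the 8-cell stage, 16.3 in morulae, 31.6 in IT and 18.6 in TE. In NT-D it stood at 671 FPKM in oocytes, 692 at the 1-cell, 369 at the 2-cell, 409 at the 4-cell and 79.1 at the 8-cell stage, 31.0 in morulae, 29.8 in IT and 24.8 in TE. In NT-LW it stood at 550.0 FPKM at the 1-cell, 371 at the 2-cell, 434 at the 4-cell and 83.2 at the 8-cell stage, 38.9 in morulae, 36.8 in IT and 23.7 in TE. The cloned libraries lay above the IV-D library at every stage except IT, where the groups lay close together. Compared at the 8-cell stage, NT-D stood at 7.18 times IV-D (6.20 to 8.36) and NT-LW at 7.55 times (6.51 to 8.80), and the cloned groups overlapped each other.

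HLTF was a low transcript that stayed between 6.71 and 12.2 FPKM in the clones. In IV-D it stood at 10.4 FPKM in oocytes, 6.77 at the 1-cell, 6.01 at the 2-cell, 9.28 at the 4-cell and 2.40 at the 8-cell stage, 2.15 in morulae, 1.67 in IT and 5.26 in TE. In NT-D it stood at 7.58 FPKM in oocytes, 7.46 at the 1-cell, 7.75 at the 2-cell, 8.15 at the 4-cell and 6.80 at the 8-cell stage, 8.35 in morulae, 8.77 in IT and 12.2 in TE. In NT-LW it stood at 10.4 FPKM at the 1-cell, 6.71 at the 2-cell, 7.26 at the 4-cell and 10.2 at the 8-cell stage, 12.1 in morulae, 10.6 in IT and 9.94 in TE. IV-D 8-cell embryos, morulae and IT were the 3 lowest libraries and overlapped as neighbours, and no cloned library lay below 6.71 FPKM. In 8-cell embryos NT-D stood at 2.83 times IV-D (2.46 to 3.26) and NT-LW at 4.23 times (3.70 to 4.85).

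ZHX1 peaked at the 4-cell stage in all 3 groups. In IV-D it stood at 17.4 FPKM in oocytes, 10.4 at the 1-cell, 6.83 at the 2-cell, 25.9 at the 4-cell and 2.71 at the 8-cell stage, 0.358 in morulae, 0.634 in IT and 1.73 in TE. In NT-D it stood at 11.4 FPKM in oocytes, 15.7 at the 1-cell, 14.3 at the 2-cell, 29.4 at the 4-cell and 10.6 at the 8-cell stage, 7.47 in morulae, 1.62 in IT and 1.43 in TE. In NT-LW it stood at 18.7 FPKM at the 1-cell, 14.8 at the 2-cell, 33.8 at the 4-cell and 13.6 at the 8-cell stage, 6.71 in morulae, 1.77 in IT and 1.06 in TE. Its lowest library was the IV-D morula, with 38 fragments, which overlapped IV-D IT. The 8-cell embryos of NT-D stood at 3.92 times IV-D (3.43 to 4.48) and NT-LW at 5.02 times (4.40 to 5.75).

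**Figure D1:**
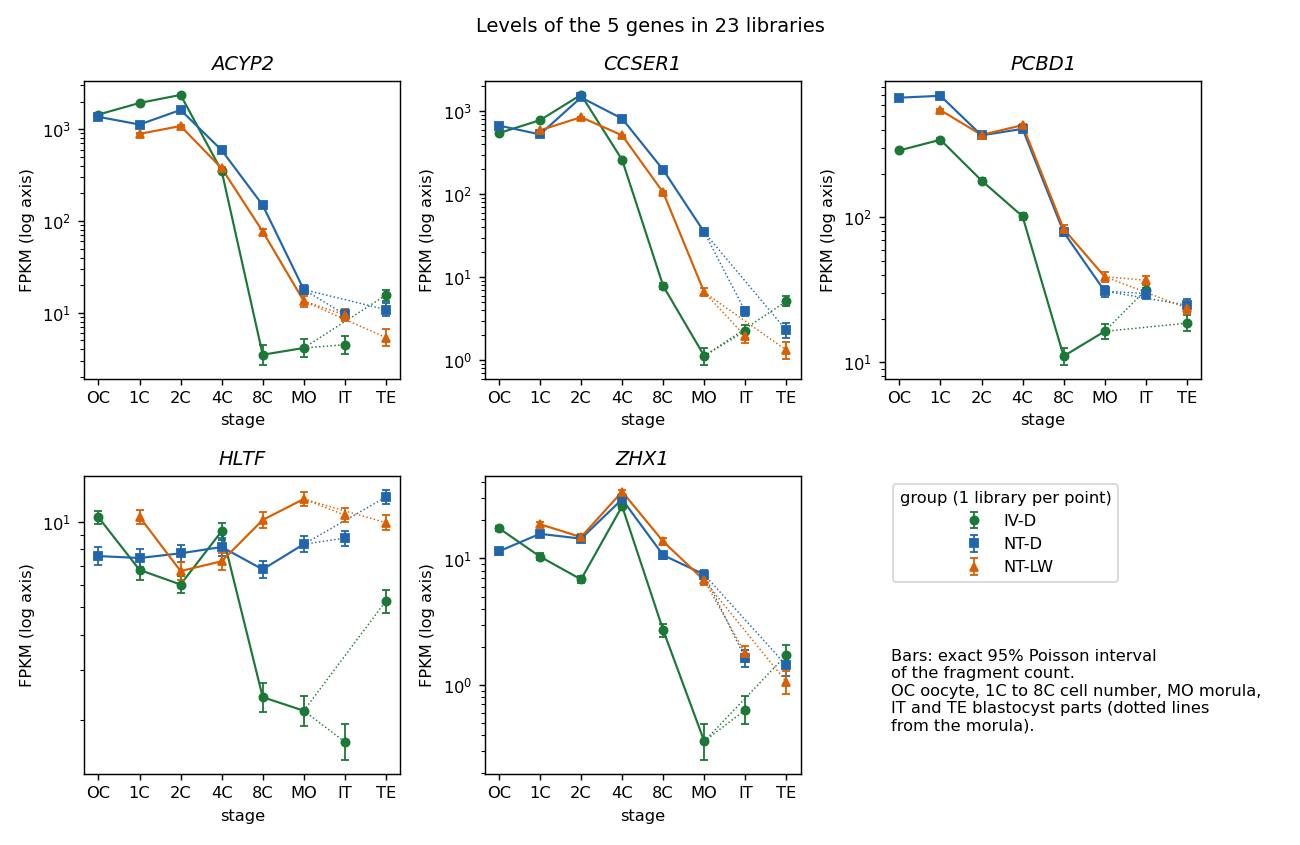
Level of each of the 5 genes (FPKM, log axis) by stage in IV-D, NT-D and NT-LW, 1 library per point, with exact 95% Poisson intervals. ACYP2, CCSER1, PCBD1 and ZHX1 descend in all groups but reach the level of the IV-D 8-cell embryo later or not at all in clones, and HLTF stays between 6.71 and 12.2 FPKM in the clones while IV-D stands at 2.40 at the 8-cell stage.

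Ordered from high to low over the 23 libraries, neighbours overlapped in 8 of 22 pairs for ACYP2, 5 for CCSER1, 10 for PCBD1, 20 for HLTF and 13 for ZHX1. For ACYP2 and CCSER1 the overlaps lay mainly among morulae and blastocyst pieces, whereas the levels of HLTF formed an almost unbroken series.

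The rule for calling a gene higher or lower between 2 libraries was a gap of over 1 in log2(FPKM + 1), with either library reaching 1 FPKM. By this rule all 5 genes were higher at the 8-cell stage in NT-D, where 10.8% of the genes compared were higher and 17.4% lower, and all 5 in NT-LW, where 16.3% were higher and 17.3% lower. Nearest the limit was HLTF in NT-D, which ranked 544 of 7441. That count is what the genes were chosen for. Across the whole table, 660 genes, 7.67% of 8603, were higher in both cloned groups, so the 5 are a small sample of them. NT-D and NT-LW share the IV-D libraries as reference, so the differences of one are not independent of those of the other.

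The step from the 4-cell to the 8-cell stage shows what "kept" means for each gene, although it again uses the 8-cell libraries that chose them. In IV-D all 5 genes fell over this step, as did 28.1% of genes. In NT-D 4 of the 5 fell, against 28.7% of genes, and in NT-LW 4 of the 5, against 25.6%. HLTF was the gene that did not pass the rule in either cloned group. ACYP2 at the 8-cell stage stood at 0.997% of its 4-cell level in IV-D (0.768 to 1.27), 25.2% in NT-D (24.1 to 26.3) and 20.5% in NT-LW (19.2 to 21.8). CCSER1 stood at 3.02%, 24.1% and 20.5% in the same order. PCBD1 stood at 10.8%, 19.3% and 19.2%. For these transcripts most of the 4-cell level was gone in clones as well, and more of it was gone in IV-D. Part of the 8-cell difference was present before this step. At the 4-cell stage PCBD1 already stood at 4.02 times IV-D in NT-D and 4.27 times in NT-LW. CCSER1 stood there at 3.14 and 1.97 times, and ACYP2 at 1.69 and 1.07 times.

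For ZHX1 the 8-cell share of the 4-cell level was 10.5% in IV-D (9.21 to 11.9), 36.2% in NT-D (33.5 to 38.9) and 40.3% in NT-LW (37.7 to 43.2). For HLTF it was 25.9% in IV-D (22.6 to 29.7), 83.4% in NT-D (75.1 to 92.5) and 140% in NT-LW (127 to 154). HLTF is thus the only one of the 5 that did not fall by the rule in the clones. In NT-LW it stood above its 4-cell level, beyond counting error. Across the 1103 genes that fell in IV-D and had at least 10 FPKM at the 4-cell stage of every group, the median share was 17.1% in IV-D, 22.7% in NT-D and 28.9% in NT-LW. The cloned shares of ACYP2, CCSER1 and PCBD1 were 19.2% to 25.2%. In NT-D they lay on both sides of the median of 22.7%. In NT-LW all lay below the median of 28.9% and above the lower quartile of 18.3%. ZHX1, at 36.2% in NT-D and 40.3% in NT-LW, lay above both medians and below the upper quartiles of 39.9% and 45.3%. The IV-D shares of these 4 genes, 0.997% to 10.8%, lay below the IV-D median of 17.1%. Those of PCBD1 and ZHX1 lay above the IV-D lower quartile of 5.92%. The IV-D median is itself low because the genes behind it were taken for falling in IV-D.

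**Figure D2:**
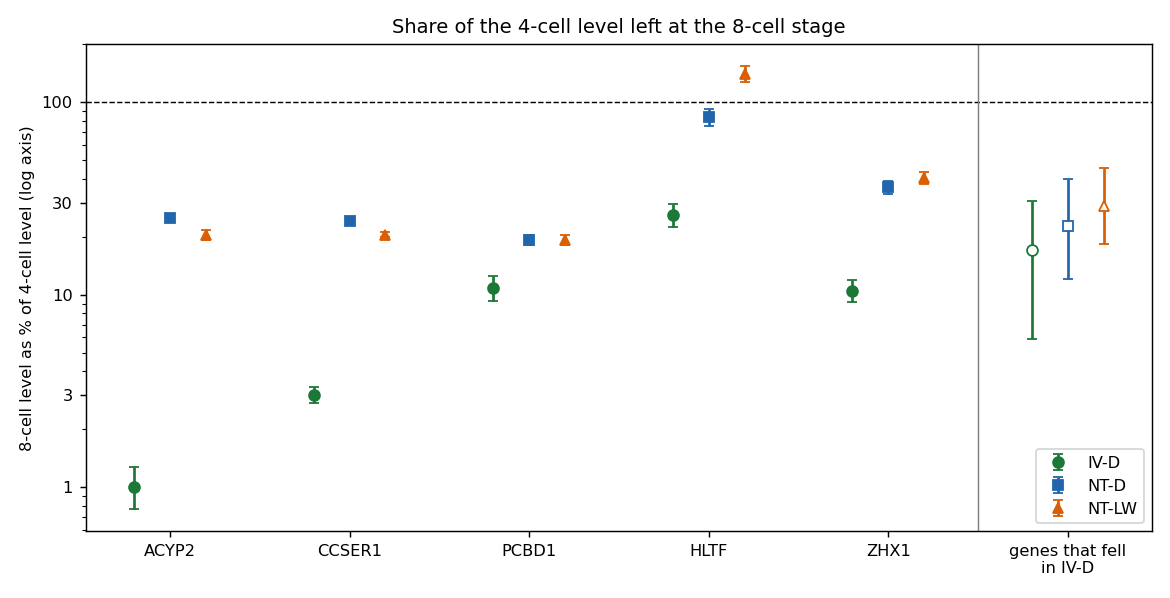
Level at the 8-cell stage as a percentage of the 4-cell level (log axis) for each of the 5 genes in IV-D, NT-D and NT-LW, with exact 95% binomial intervals, and at the right, with open symbols, the median and quartiles over 1103 genes that fell in IV-D. ACYP2 has 0.997% left in IV-D against 25.2% and 20.5% in the clones, and HLTF alone lies above the dashed line at 100%, in NT-LW.

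The same split is seen in the table. Of the 660 genes that were higher in both cloned groups at the 8-cell stage, 278 (42.1%) fell from the 4-cell to the 8-cell stage in all 3 groups, as ACYP2, CCSER1, PCBD1 and ZHX1 did, and 96 (14.5%) fell in IV-D but in neither cloned group, as HLTF did. In all, 410 of the 660 (62.1%) fell in IV-D over this step, which is 18.2% of the 2250 genes that fell there. These counts share the 8-cell libraries with the choice of the 5 genes and are a description.

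The stages other than the 8-cell stage lay outside the contrast that chose the genes, although earlier results of these data were known. There the 5 genes were higher in NT-D in 11 of 35 comparisons and lower in 0. In NT-LW they were higher in 9 of 30 and lower in 4. Of the 4 lower calls 3 were of ACYP2 and 1 of CCSER1. The same 5 genes recur across stages, so these comparisons are not independent. The share of all genes higher in NT-D was 18.5% at the 1-cell, 6.48% at the 2-cell and 9.74% at the 4-cell stage. It was 13.3% in NT-D oocytes, 18.7% in morulae, 9.47% in IT and 3.13% in TE. The share higher in NT-LW was 20.8% at the 1-cell, 34.7% at the 2-cell and 10.8% at the 4-cell stage. It was 11.6% in NT-LW morulae, 8.7% in IT and 6.26% in TE. Among all genes, the share lower in NT-D was 1.51% in oocytes, 3.44% at the 1-cell, 1.9% at the 2-cell and 13.2% at the 4-cell stage, 3.88% in morulae, 15.4% in IT and 4.23% in TE. In NT-LW it was 4.12% at the 1-cell, 3.51% at the 2-cell and 9.43% at the 4-cell stage, 4.07% in morulae, 13.7% in IT and 10.2% in TE.

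Before the 8-cell stage PCBD1 was the gene with the most calls. Its oocyte level in NT-D was 2.31 times that in IV-D (2.24 to 2.39), a log2 difference of 1.21, and it was the only one of the 5 that was higher, against 13.3% of genes. It was also higher in NT-D at the 1-cell stage, at a log2 difference of 1.01 where 18.5% of genes were higher, and in both cloned groups at the 2-cell stage, by 1.03 in NT-D (6.48% of genes) and 1.04 in NT-LW (34.7% of genes). With median-ratio scaling these oocyte, 1-cell and 2-cell differences were 0.83, 0.52, 0.63 and 0.10 and no longer passed. At the 1-cell stage of NT-LW, where 20.8% of genes were higher, the PCBD1 difference was 0.68. ZHX1 was higher in NT-LW 2-cell embryos, by 1.01, and stood at 0.16 with median-ratio scaling. In NT-D 2-cell embryos it stood at 2.10 times IV-D (1.92 to 2.30), a log2 difference of 0.97 that just missed the rule. It passed there with 0.1 added before the log (1.06) and with equal sums (1.12). With median-ratio scaling it was 0.63 and did not.

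At the 4-cell stage PCBD1 stood at 4.02 times the IV-D level in NT-D (3.80 to 4.26) and 4.27 times in NT-LW (4.04 to 4.52), and this call held under both scalings. Of all genes compared, 9.74% were higher in NT-D embryos and 10.8% in those of NT-LW. CCSER1 was higher at this stage in NT-D, by 1.65 on the log2 scale, and at 0.98 just missed the rule in NT-LW. ACYP2, HLTF and ZHX1 differed by 0.75, -0.17 and 0.17 in NT-D and by 0.10, -0.31 and 0.37 in NT-LW, all inside the rule.

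ACYP2 was lower in the earliest NT-LW embryos than in IV-D embryos of the same stage. At the 1-cell stage NT-LW stood at 46.1% of the IV-D level (45.2 to 47.0) and at the 2-cell stage at 45.8% (45.1 to 46.6), both lower by the rule. Scaled to equal sums, these differences were -0.82 and -0.88 and did not pass, and with median-ratio scaling they were -1.57 and -2.07. In NT-D the log2 differences were -0.78 and -0.54, and with median-ratio scaling the first was -1.27 and passed. That scaling also called CCSER1 lower in NT-D 1-cell (-1.06) and NT-LW 2-cell embryos (-1.84). The cloned libraries with 22.0 to 42.5 times the IV-D level of ACYP2 at the 8-cell stage thus followed 2-cell libraries at 1082 and 1619 FPKM, against 2361 in IV-D.

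The morula libraries also took no part in the choice of the genes. In NT-LW all 5 genes were higher than in IV-D morulae, against 11.6% of genes, and in NT-D 4 of the 5, against 18.7% of genes. PCBD1 missed the rule in NT-D, at 0.88, and with median-ratio scaling in NT-LW too, at 0.94. ZHX1 stood at 20.9 times the IV-D level in NT-D (15.1 to 29.7) and 18.7 times in NT-LW (13.5 to 26.8), on 38 fragments in IV-D. Its difference on the log2(FPKM + 1) scale was 2.64 and 2.50, since the added 1 outweighs a level of 0.358.

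CCSER1 in NT-D morulae stood at 31.1 times IV-D (24.4 to 40.1), far above the 5.85 times in NT-LW (4.51 to 7.70). The cloned morulae differed from each other by 5.30 times in CCSER1 (4.72 to 5.97), and CCSER1 was the only one of the 5 genes called between them. In that comparison 14.1% of genes were higher and 7.02% lower in NT-D. The NT-D morula library was also the one with the 645 FPKM of oocyte transcripts. Their part in the CCSER1 level was not tested. ACYP2 stood at 4.32 times IV-D in NT-D and 3.24 times in NT-LW, and HLTF at 3.88 and 5.60 times.

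In the blastocyst HLTF was the gene of the 5 called higher in the clones by the rule. In IT its level was 5.25 times that of IV-D in NT-D (4.49 to 6.17) and 6.33 times in NT-LW (5.42 to 7.42), and 9.47% and 8.7% of genes were higher. In TE it was 2.33 times in NT-D (2.09 to 2.61), where 3.13% of genes were higher, and 1.89 times in NT-LW (1.69 to 2.12), a log2 difference of 0.81 that did not pass the rule where 6.26% of genes did. The IV-D level of HLTF was 5.26 FPKM in TE and 1.67 in IT, while the clones stood at 12.2 and 9.94 in TE. The other 4 genes were not called higher in either blastocyst piece by the rule. With a pseudocount of 0.1, however, ACYP2 was called higher in IT of NT-D (1.08) and NT-LW (1.06), and ZHX1 in IT of NT-D (1.23) and NT-LW (1.35). ACYP2 in IT stood at 2.13 times IV-D in NT-D (1.63 to 2.81) and 2.11 times in NT-LW (1.61 to 2.79). ZHX1 in IT stood at 2.55 times IV-D in NT-D (1.90 to 3.47) and 2.79 times in NT-LW (2.09 to 3.78). Median-ratio scaling also brought ACYP2 in NT-D IT past the limit, at 1.05 from 0.95.

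In TE 2 of the genes were called lower, ACYP2 and CCSER1, both in NT-LW. NT-LW stood at 34.5% of the IV-D level for ACYP2 (26.5 to 44.6) and 25.7% for CCSER1 (19.3 to 33.9), and both calls held under either scaling. In NT-D the levels were 69.5% (56.1 to 86.0) and 44.5% (34.9 to 56.4), log2 differences of -0.49 and -0.90 that did not pass. With a pseudocount of 0.1, however, CCSER1 was called lower in NT-D TE too, at -1.13. The IV-D TE library was itself higher than the IV-D morula in these genes, as it was in 12% of genes. ACYP2 there, at 15.6 FPKM, stood at 3.76 times the IV-D morula (2.89 to 4.94) and CCSER1, at 5.13 FPKM, at 4.58 times (3.48 to 6.08).

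**Figure D3:**
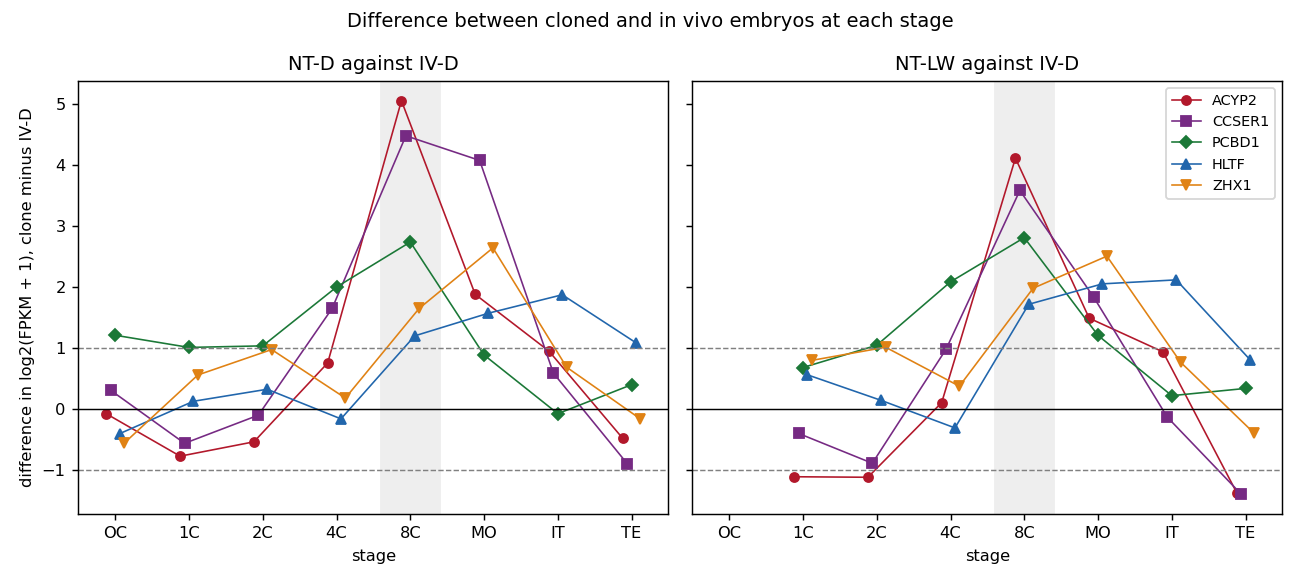
Difference in log2(FPKM + 1) between each cloned group and IV-D by stage for the 5 genes, with dashed lines at the limit of the rule (1 and -1) and the stage that chose the genes shaded. ACYP2 and CCSER1 peak at the 8-cell stage (5.06 and 4.48 in NT-D) and are below 0 in TE, PCBD1 is above 1 in the NT-D oocyte and reaches 2.08 in NT-LW at the 4-cell stage, and HLTF and ZHX1 peak after the 8-cell stage.

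From the 8-cell stage to the morula, CCSER1 and ZHX1 fell in IV-D (by 2.06 and 1.45 on the log2 scale), where 13.6% of genes fell. In NT-D ACYP2, CCSER1 and PCBD1 fell, by 2.99, 2.46 and 1.33, against 12% of genes, and in NT-LW the same 3 genes fell, by 2.43, 3.81 and 1.08, against 12.4% of genes. ACYP2 and PCBD1 in IV-D did not fall further, at 4.14 and 16.3 FPKM in morulae against 3.49 and 11.0 in 8-cell embryos. This step too uses the 8-cell libraries of the choice. The PCBD1 fall of 1.08 in NT-LW lay nearest to the limit, and the NT-LW count of 3 was 2 with libraries scaled to equal sums and 4 with a pseudocount of 0.1 or median-ratio scaling.

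How late the clones came down to the level of the IV-D 8-cell embryo differed by gene. CCSER1 was at or below 7.82 FPKM from the morula on in NT-LW and from the blastocyst on in NT-D. ZHX1 was at or below 2.71 FPKM in both blastocyst pieces of both cloned groups. ACYP2, PCBD1 and HLTF stayed above it in every library, with a lowest level of 2.74 times (ACYP2, NT-D), 1.54 times (ACYP2, NT-LW), 2.25 and 2.15 times (PCBD1) and 2.83 and 4.14 times (HLTF). For PCBD1 the IV-D level itself stood at 31.6 FPKM in IT, so the IV-D 8-cell library is its lowest point and not its end point.

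The cloned groups differ in donor breed, and each has its own donor animal, so breed and animal cannot be told apart. None of the 5 genes passed the rule between NT-D and NT-LW 8-cell embryos, where 2.15% of genes were higher and 3.99% lower. ACYP2 and CCSER1 were nevertheless 1.93 times (1.80 to 2.08) and 1.87 times (1.81 to 1.94) as high in NT-D, beyond counting error. HLTF stood at 66.9% (60.7 to 73.7) and ZHX1 at 77.9% (71.6 to 84.9) of the NT-LW level, and PCBD1 at 95.1% (88.0 to 103), an interval that includes equal levels.

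Over the 23 libraries, Pearson's r of log2(FPKM + 1) was 0.971 between ACYP2 and CCSER1, 0.939 between ACYP2 and PCBD1 and 0.911 between CCSER1 and PCBD1. ZHX1 had an r of 0.820 with ACYP2, 0.886 with CCSER1 and 0.826 with PCBD1. HLTF had an r of 0.242 to 0.429 with the other 4. These are descriptions over libraries that share stage, group and depth. HLTF is the gene whose course was not that of the others.

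The 3 genes most like each of the 5 over the 23 libraries, among genes with a symbol that reached 10 FPKM in some library, were for ACYP2 HDAC9 (r = 0.983), VIT (0.982) and PLAGL1 (0.982), and for CCSER1 VWC2L (0.989), CCL4 (0.987) and GHR (0.986). For PCBD1 they were HHAT, TLE2 and CLUL1 (all 0.966 to 0.967), and for ZHX1 SPOP (0.970), ZNF280D (0.946) and LCORL (0.945). Likeness was taken over all libraries, those of the 8-cell stage included, so a higher level of these genes in cloned 8-cell embryos is largely fixed by the choice. GHR, the growth hormone receptor, stood at 1.14 FPKM in IV-D, 17.9 in NT-D and 26.8 in NT-LW 8-cell embryos, and SPOP, a ubiquitin ligase adaptor, at 4.02, 11.5 and 13.3. For HLTF the most alike were KLHL5 (0.712), KITLG (0.693) and GINM1 (0.677), a much weaker likeness, and KITLG, the KIT ligand, stood at 16.8 FPKM in IV-D, 7.24 in NT-D and 16.6 in NT-LW 8-cell embryos. The choice of the most alike genes was not stable, since only 2 of the 15 were chosen with Spearman's rho and 7 with a pseudocount of 0.1.

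Genes that work with the 5 in known pathways were read from lists. Of 6 paralogs only SHPRH, the other ubiquitin ligase of the HLTF type, was in the table, at 4.70 FPKM in IV-D, 5.04 in NT-D and 4.14 in NT-LW 8-cell embryos. Of 18 genes of post-replication repair 14 were in the table. At the 8-cell stage 10.8% of all genes were higher and 17.4% lower in NT-D, and 16.3% and 17.3% in NT-LW. Of the 14, 1 was higher in each cloned group at that stage and none lower. It was SMARCAL1 in NT-D (3.01 FPKM in IV-D, 7.55 in NT-D, 2.81 in NT-LW) and UBE2A, the ubiquitin conjugase that works with RAD18, in NT-LW (14.3, 28.6 and 55.0 FPKM). RAD18 itself stood at 103, 99.7 and 98.5 FPKM.

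Around PCBD1, 2 enzymes of tetrahydrobiopterin metabolism are described. At the 8-cell stage PTS was higher in NT-LW by the rule, and neither passed it in NT-D. PTS, which makes the precursor of tetrahydrobiopterin, stood at 36.1 FPKM in IV-D, 64.8 in NT-D and 95.7 in NT-LW. QDPR, the other recycling enzyme, stood at 1.91, 1.27 and 0.543 FPKM. Of 9 partners and relatives of ZHX1, 7 were in the table, 5 could be compared and none was higher. NFYC was lower in both cloned groups (26.1, 9.96 and 11.2 FPKM) and NFYA in NT-LW (16.4, 10.6 and 7.36 FPKM). The shares of all genes were 10.8% higher and 17.4% lower in NT-D, and 16.3% and 17.3% in NT-LW. NFYA and NFYC encode subunits of the CCAAT-binding factor NF-Y, and ZHX1 binds NFYA.

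The machinery that clears maternal messengers was read from 39 genes, of which 32 were in the table. At the 8-cell stage 2 of the 30 compared were higher and 2 lower in NT-D, where 10.8% and 17.4% of all genes were. In NT-LW 3 of 31 were higher and 4 lower, where 16.3% and 17.3% of all genes were. The medians of the list were -0.29 and -0.18, against -0.12 and -0.02 over all genes. Among the changed were BTG4, the adaptor that brings the CCR4-NOT deadenylase to maternal messengers, at 16.9 FPKM in IV-D, 108 in NT-D and 289.8 in NT-LW, and CPEB1, the factor that binds the TTTTAT element, at 0.0345, 1.89 and 2.02. Lower in both cloned groups were DCP1A (37.0, 17.9 and 13.5 FPKM), a decapping cofactor, and DDX6 (14.7, 6.53 and 5.00 FPKM), a helicase of decapping and repression. BTG4 is itself a stored oocyte transcript.

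Of 20 oocyte transcripts 15 were in the table, and none of the 5 genes is on that list. All 15 fell from the 4-cell to the 8-cell stage in IV-D, against 28.1% of all genes. At the 8-cell stage 9 of 13 compared were higher in NT-D and 1 lower, with a median of 2.03. In NT-LW 10 of 13 were higher and 0 lower, with a median of 2.28. The shares over all genes were 10.8% higher and 17.4% lower in NT-D, and 16.3% and 17.3% in NT-LW. BMP15 stood at 2.02 FPKM in IV-D, 48.4 in NT-D and 56.8 in NT-LW, ZP4 at 5.77, 100.4 and 114, and TDRD1, the lower gene, at 3.70, 1.27 and 1.71. The summed level was 119 FPKM in IV-D, 789 in NT-D and 1043 in NT-LW, which is 2.60%, 11.9% and 16.7% of the 4-cell sum, and no gene of the list was at 0 fragments in the 8-cell libraries. From the 8-cell stage to the morula the oocyte sum of NT-D went from 789 to 645 FPKM. In that group ACYP2 went to 12.0%, CCSER1 to 17.7% and PCBD1 to 39.1% of its 8-cell level. In NT-LW the oocyte sum went from 1043 to 103 FPKM. There ACYP2 went from 76.8 to 13.4 FPKM, CCSER1 from 105 to 6.56 and PCBD1 from 83.2 to 38.9. The part of stored oocyte RNA in the 8-cell levels of the 5 genes was not tested.

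In morulae 12 of 14 oocyte transcripts were higher in NT-D and 6 of 11 in NT-LW, against 18.7% and 11.6% of all genes. By the blastocyst the sum was 3.80 to 31.3 FPKM in all 6 libraries, and in IV-D TE, where ACYP2 and CCSER1 stood above the morula, it was 6.15 FPKM, with 7 of the 15 genes at 0 fragments. In the cloned IT and TE pieces the oocyte sums were 3.80 to 9.04 FPKM. GDF9, named after its value was seen, was at 0.142 FPKM in NT-D TE. The part of stored oocyte RNA in the IT and TE levels of ACYP2, CCSER1 and HLTF was not tested.

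Markers of the donor cell were also read. Of 20 fibroblast genes 8 were in the table. At the 8-cell stage 2 of 4 compared were higher in NT-D and 3 of 5 in NT-LW, against 10.8% and 16.3% of all genes. At the 4-cell stage 5 of 7 were higher in each, against 9.74% and 10.8% of all genes. The summed level was 4.12 FPKM in IV-D, 29.6 in NT-D and 30.7 in NT-LW 8-cell embryos, most of it S100A4, which stood at 0, 23.05 and 18.7 FPKM and was the only marker at 0 fragments there. COL1A2 stood at 0.0206, 1.83 and 1.90 FPKM, and COL1A1 at 0.154, 0.156 and 0.213. In IT and TE the sum was at most 9.70 FPKM. The IV-D 1-cell library, which holds no donor cell, had a sum of 75.8 FPKM, against 98.2 (NT-D) and 102 (NT-LW) at that stage. The neighbouring IV-D sums were lower, at 5.27 FPKM for oocytes, 5.47 for 2-cell and 8.28 for 4-cell embryos. Cloned 2-cell embryos held 97.7 FPKM (NT-D) and 74.5 FPKM (NT-LW), and cloned 4-cell embryos 134 FPKM (NT-D) and 152 FPKM (NT-LW). Whether each marker is particular to the donor cell was not tested. The part of donor cell RNA in the levels of the 5 genes was not tested, and the donor cells were not analysed here.

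**Figure D4:**
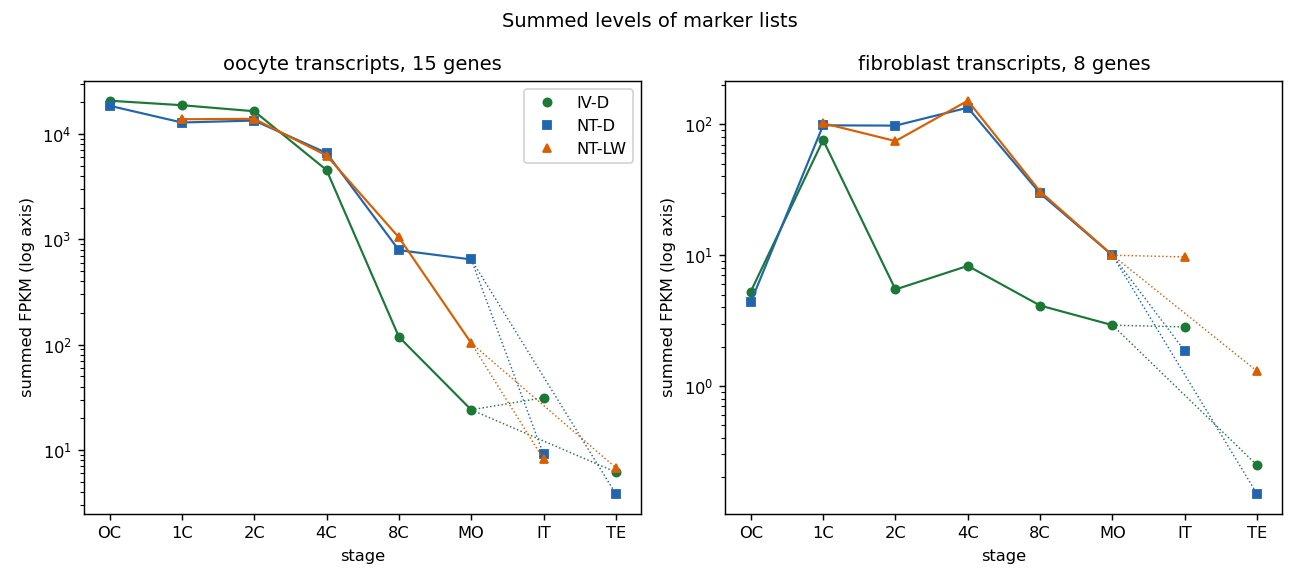
Summed FPKM (log axis) by stage of 15 oocyte transcripts (left) and 8 fibroblast transcripts (right) in IV-D, NT-D and NT-LW, 1 library per point. At the 8-cell stage both sums are higher in the clones (789 and 1043 against 119 for the oocyte list, 29.6 and 30.7 against 4.12 for the fibroblast list), and the oocyte sum of NT-D morulae stays at 645.

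Of 10 cumulus cell genes 2 were in the table and 1 could be compared, with no call. Of 10 trophectoderm genes 9 were in the table, 4 of 7 compared were lower in NT-D and 5 in NT-LW 8-cell embryos, and the sums were 36.6, 15.7 and 10.4 FPKM. Of 9 genes of the inner cell mass 6 were in the table, 3 were lower in NT-D and 4 in NT-LW. Their sums were 280.4, 121 and 62.3 FPKM. The shares of all genes lower at the 8-cell stage were 17.4% in NT-D and 17.3% in NT-LW. In the blastocyst pieces the labels were met in part, since the sum of the inner cell mass genes was 489, 94.0 and 170 FPKM in IT and 22.4, 27.3 and 48.8 in TE of IV-D, NT-D and NT-LW.

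Genes beside the 5 on the chromosome, chosen after the annotation was seen, were compared at the 8-cell stage. PSME4, a proteasome activator gene 134 bases from ACYP2, stood at 13.3 FPKM in IV-D, 8.11 in NT-D and 10.5 in NT-LW 8-cell embryos. SGPL1, which overlaps PCBD1, stood at 3.68, 4.09 and 5.55 FPKM, and GYG1, 1630 bases from HLTF, at 3.56, 3.02 and 2.83 FPKM. None passed the rule at the 8-cell stage. SGPL1 in NT-LW 4-cell embryos did, by 1.04, at 1.70 FPKM against 0.310 in IV-D, where PCBD1 stood at 434 against 102.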

How the data were processed

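The authors amplified polyadenylated RNA with SMART-Seq v4, aligned paired reads to Sscrofa11.1 with HISAT2 2.0.4, counted them per Ensembl gene with HTSeq 0.9.1 (build and versions as in the submitters' processing notes) and deposited FPKM values in a single table of 8603 genes, 7371 with a symbol. By its title it holds differentially expressed genes. The selecting step is not given in the sources used here, so every background share is a share of that selection.

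Because FPKM values of a library move in whole-fragment steps, fragments, gene lengths and depths could be worked back, for 100% of genes, within 0.001 of a whole fragment. Recovery was tested on simulated data of 8603 genes for the NT-D against IV-D 8-cell comparison. It returned all fragments for 99.98% of genes, and the fold rule called 100% of 200 genes raised 8-fold. Depth was 14952784 to 22991067 fragments, of which the table holds 82.8% to 97.2%.

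The rule was a difference above 1 in log2(FPKM + 1), with FPKM of at least 1 in either library. With 1 library per condition there is no p-value. Intervals are exact Poisson (levels) and exact binomial (ratios) at 95%. Promoters, 3′ regions and positions come from RefSeq's annotation of Sscrofa11.1, matched by symbol. Named genes are the 5, the 3 most alike to each by r, pathway partners with FPKM of at least 1 in an 8-cell library, and of lists over 10 genes the 2 largest differences in each direction among those called in NT-D. Genes and values named beyond this (COL1A1, GDF9, the chromosomal neighbours) were chosen after their values were seen. A promoter and a partner gene are not reported here. The 5 genes and all lists were chosen with earlier results of these data known.

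Values were recomputed with 0.1 added before the log, with minimum FPKM at 5 or dropped, with median-ratio scaling, with each library set to sum to 1000000, and with fragments compared by an exact binomial test (adjusted p under 0.005 beside the fold). Likeness was recomputed with Spearman's rho. The work ran in Python 3.11.15 (pandas 2.3.3, numpy 2.4.6, matplotlib 3.10.9, scipy 1.17.1).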

Additional observations from a re-analysis of the deposited data

Results flagged for a closer look

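From the morula to TE, 3 of the 5 genes moved in opposite directions in the groups, the IV-D library upward and both cloned libraries downward. With 1 library per stage and group, the difference between groups was not tested. Of all genes 12% were higher in IV-D TE than in the IV-D morula, and the share with the opposite movement in clones is not given here. On the log2(FPKM + 1) scale ACYP2 moved by 1.69 in IV-D, -0.67 in NT-D and -1.17 in NT-LW, and its NT-D change did not pass the rule. CCSER1 moved by 1.53 in IV-D, from 1.12 FPKM in morulae, by -3.45 in NT-D and by -1.71 in NT-LW. Its NT-D fall started from the morula library with 645 FPKM of oocyte transcripts. ZHX1, the transcriptional repressor, moved by 1.01 in IV-D, -1.80 in NT-D and -1.91 in NT-LW, from 0.358 FPKM in IV-D morulae. No group has the 4 samples that an outlier test needs.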

How the results depend on the processing

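All 5 genes were higher in both cloned 8-cell groups under every alternative, and the counts of genes falling from the 4-cell to the 8-cell stage kept within 1.5 times their value. NT-D had 0 lower calls at other stages but 1 with a pseudocount of 0.1 and 2 with median-ratio scaling. NT-LW had 4, and 2 with libraries scaled to equal sums. IV-D falls to the morula numbered 2, and 1 with a minimum FPKM of 5. Of the 15 most alike genes 7 were chosen again with a pseudocount of 0.1 and 2 with Spearman's rho. The cause was not tested. No result reversed. No paired analysis was possible because each condition had 1 library, and leaving out a replicate was not possible for the same reason. Depth limits the lowest values, such as ZHX1 in IV-D morulae on 38 fragments, and the spread between embryos is unknown.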
